A study of Mus musculus with 36 samples.

Results

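Solute carriers are the membrane proteins through which amino acids, sugars, lactate, nucleosides, ions and metals cross the plasma membrane and the membranes of organelles. Their genes are named *Slc* followed by a family number. In skeletal muscle the family is known for insulin-regulated glucose uptake, export of lactate, exchange of ATP and ADP across the inner mitochondrial membrane, carnitine-dependent transport of fatty acids, and extrusion of calcium. A few carriers work only with a partner protein that takes them to the membrane, and the carriers of metals and amino acids are also known from immune cells. The genes described here are those with 1 symbol that starts with *Slc* and a digit, apart from *Slc4a1*. These genes were taken by name, with earlier results of these data known. They comprised 132 of 8129 oligonucleotides on the array, for 126 of 6540 genes with a symbol.

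Expression was measured in the quadriceps muscle of beta-sarcoglycan-deficient mice (BSG) and gamma-sarcoglycan-deficient mice (GSG), at 1, 2.5 and 4 weeks of age, then every second week from 6 to 14 weeks, and at 20 weeks. Both strains lack a component of the complex that anchors the muscle fibre membrane, and both are models of limb-girdle muscular dystrophy. Of each age and strain 2 mice were used, and their RNA was hybridised in 4 closed loops of 9 two-colour arrays, 2 loops per strain, with each mouse on 2 arrays. Animals received no treatment by the sources used here, and wild-type and dystrophin-deficient mice are not analysed here, so a change with age cannot be told apart from normal growth. Littermates were used for most ages, by the study's account, and the hour of death varied between strains and ages, so age cannot be told apart from litter and hour.

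All values below are log2 ratios to the 1-week mouse of the same loop, so that 8 values of a loop share 1 mouse, and -1 means a level at 0.5 of that of 1 week. The sign of the deposited ratios is likely but not stated. With the sign used, *Dlk1*, an imprinted gene of newborn muscle, was lower at 20 weeks in the 4 mice, by between -2.80 and -3.97. Duplicate spots of the 132 oligonucleotides correlated with a median of 0.50 over the 36 arrays, and the lowest of the arrays was at -0.08. Over all oligonucleotides, 9 arrays had duplicate spots correlating below 0.3, of which 4 were in BSG loop 1 and 4 in GSG loop 1. The files hold ratios and no intensities, so that it is unknown which carriers were above background. In muscle RNA, fewer cells of a type and less RNA per cell cannot be told apart.

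Most carriers lay near their 1-week level. At 20 weeks 118 of the 132 oligonucleotides in BSG and 116 in GSG lay within 0.5 of their 1-week level on the log2 scale, and 3 in each strain differed from it by 1 or more. The median absolute difference was 0.14 in BSG and 0.16 in GSG, against 0.15 and 0.17 over all oligonucleotides. The 95% confidence interval of a 20-week difference extended to 0.40 on either side in the median, and to 1.46 for the least precise carrier, which limits the changes that could be detected.

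In BSG, 3 carriers fell between 1 and 20 weeks at an adjusted *P*-value below 0.05 (limma, Benjamini-Hochberg over all oligonucleotides), and none rose. Over all oligonucleotides 1.28% were called in BSG and 0.849% were called lower. In GSG, 1 carrier fell and none rose, against 3.74% called and 3.03% called lower over all oligonucleotides. The carriers were therefore called at 2.27% in BSG and 0.758% in GSG, and no excess over the array can be read from 3 genes and 1 gene. At an unadjusted *P*-value below 0.05 there were 19 carriers in BSG (14.4%, against 11.6% of all) and 17 in GSG (12.9%, against 14.7% of all).

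The mice at 20 weeks are the direct way to see how far single animals agree. Both BSG mice lay on the same side of their 1-week mouse for 72 of the 132 oligonucleotides, and this held for 54.1% of the whole array. Both GSG mice did so for 81, against 58.6% of the array. In all 4 mice 19 carriers were lower at 20 weeks (13.5% of the array) and 16 were higher (8.72% of the array). Across the 132 oligonucleotides the mice of BSG loops 1 and 2 correlated at 0.32 and those of GSG at 0.19 (Pearson's r, a description over genes, which are not replicates).

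Among the carriers *Slc7a9* had the smallest *P*-value of the main limma fit at 20 weeks in both strains. *Slc7a9* is the light chain of a transporter of cystine and dibasic amino acids best known from the kidney. With 1 value per animal, a fit given below, it was called in neither strain. At 20 weeks it was at -1.84 and -0.91 in the BSG mice of loops 1 and 2, and at -0.59 and -1.53 in the GSG mice. All 4 mice were below 1 week, and the ranges of the strains overlapped. The fitted difference was -1.37 in BSG (SE 0.19, n = 2 mice per age), a level 2.59-fold lower, and -1.06 in GSG (SE 0.19, n = 2 mice per age), 2.09-fold lower, with limma adjusted *P*-values of 0.000391 and 0.00185. Among all oligonucleotides *Slc7a9* ranked 5 by *P*-value in BSG and 55 in GSG. The study itself names this gene from these arrays, in its tests of strain differences over time, so *Slc7a9* was a gene singled out on these samples before.

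The decline of *Slc7a9* was spread over the ages, with small returns on the way. In BSG the fitted values from 2.5 to 14 weeks were -0.39, -0.50, -0.89, -0.84, -0.94, -1.26 and -1.33 (SE 0.19 to 0.31). In GSG they were -0.29, -0.23, -0.40, -0.60, -0.59, -0.66 and -0.80 at the same ages. The step from 6 to 8 weeks in BSG, and those from 2.5 to 4 and from 8 to 10 weeks in GSG, were upward and smaller than the SEs. At each of the 8 later ages both mice of a strain were below 1 week. Over 8 to 20 weeks the mean was -1.15 in BSG (SE 0.23, limma adjusted *P*-value 0.0378), the only carrier called in this comparison, in which 0.0984% of all oligonucleotides were called. In GSG the mean was -0.74 (limma adjusted *P*-value 0.177). Without BSG loop 1 the BSG mean was -0.76 and was not called (limma adjusted *P*-value 1.00), nor was it without GSG loop 1 or 2, which share the estimate of the spread (0.126 and 0.160). No carrier was called in GSG by limma, where 0.603% of the array was, and 7 were at an unadjusted *P*-value below 0.05 (8.62% of the array).

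The call of *Slc7a9* at 20 weeks was lost without 1 loop in each strain. A strain reduced to 1 loop has a single mouse per age, whose spread is then taken mostly from the arrays of the other strain, and the calls of the whole array move with it. In BSG 104 of 8129 oligonucleotides were called with both loops, 1 without loop 1 and 266 without loop 2, so that an adjusted *P*-value of 1.00 without loop 1 says little of a single gene. Without BSG loop 1 the 20-week difference in BSG was -0.91 and was no longer called (limma adjusted *P*-value 1.00), and without GSG loop 2 that in GSG was -0.59 (0.580). With 1 value per animal the values stayed at -1.37 and -1.06, and the adjusted *P*-values from limma were 0.0824 and 0.101. Each mouse is on 2 arrays, and only that last fit takes the mouse as the unit. In GSG the first spots alone gave -0.65 (limma adjusted *P*-value 0.217). The difference between the strains at 20 weeks was -0.31 (95% confidence interval -0.88 to 0.25), within the error. The temporal Hotelling *T*2-test, which compares fitted parabolas of the strains over the ages, gave an unadjusted *P*-value of 0.501 and an adjusted one of 1.00 for *Slc7a9*. The study lists this gene as a potential biomarker of BSG from pairwise tests of this kind, BSG against GSG among them. The outcome here therefore differs from that of the study, and the cause was not tested.

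*Slc29a1*, the equilibrative transporter that moves nucleosides such as adenosine across the plasma membrane, was the second carrier called in BSG. The 20-week values were -1.31 and -0.72 in the BSG mice and -1.04 and -0.57 in the GSG mice, so the 4 mice were lower and the strains overlapped. The fitted difference was -1.02 in BSG (SE 0.24, limma adjusted *P*-value 0.0349), 2.02-fold lower, and -0.80 in GSG (SE 0.24, 0.065). With 1 value per animal and the loop as a replicate block *Slc29a1* was called in both strains (limma adjusted *P*-values 0.0254 and 0.0293), and in GSG it was also called with loops as a random replicate block (0.0128). In contrast to *Slc7a9*, much of the difference was present early. In BSG the value was -1.06 at 4 weeks and -0.70 at 10 weeks, and in GSG it was -0.49 and -0.67. At every one of the 8 later ages the values of both mice were below 1 week, in BSG as in GSG. Leaving out BSG loop 1 gave -0.72 and BSG loop 2 -1.31, neither of them called (limma adjusted *P*-values 1.00 and 0.0713), and without GSG loop 1 or 2 the BSG call was also lost (0.0898 and 0.0758). The strain difference was -0.21 (95% confidence interval -0.92 to 0.50).

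*Slc22a17*, known as a receptor for the iron-binding protein lipocalin, was the third. It was at -0.94 and -0.39 in the BSG mice at 20 weeks and at -0.11 and -0.39 in the GSG mice. Here too the 4 mice were lower, but the values were small in GSG. The fitted difference was -0.67 in BSG (SE 0.16, limma adjusted *P*-value 0.0413), 1.59-fold lower, and -0.25 in GSG (0.570). With 1 value per animal and the loop as a replicate block the BSG value was not called (limma adjusted *P*-value 0.0945). The BSG value ranged from -0.30 to -0.67 over the 8 later ages with no steady course. Without BSG loop 1 it was -0.39 at 20 weeks and was not called (limma adjusted *P*-value 1.00), and without GSG loop 1 or 2 it was not called either (0.117 and 0.122). The strain difference of -0.42 (95% confidence interval -0.90 to 0.06) did not pass the test.

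**Figure D1:**
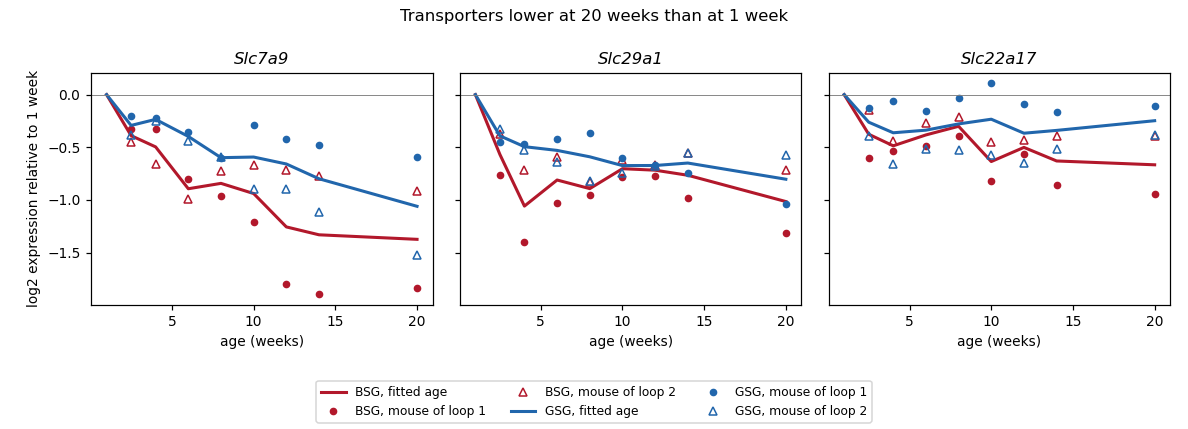
Log2 expression relative to 1 week (vertical axis) against age in weeks (horizontal axis) for *Slc7a9*, *Slc29a1* and *Slc22a17*. Lines are the fitted values of BSG (red) and GSG (blue), filled circles the mice of loop 1 and open triangles those of loop 2. *Slc7a9* reaches its lowest fitted values, -1.37 and -1.06, at 20 weeks, while *Slc29a1* is already at -1.06 in BSG at 4 weeks.

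The promoters of the carriers called in BSG are shown, 5′ to 3′ on the strand of the gene. Each runs from 250 bases before to 50 bases after a transcription start of RefSeq (GRCm38.p6). Whether these genes share any control was not tested. Where the promoter table holds several starts, as for *Slc7a9* (2 starts) and *Slc29a1* (8 starts), the outermost of them was taken. For *Slc7a9* that start, at 35449092, lies 365 bases inside the RefSeq gene, which begins at 35448727, so its window is that of an inner start, while the other 2 windows are at the outer end of the gene. Of the 126 genes 103 have an entry in this table. Capitals mark CAGCTG, the E-box that muscle regulatory factors bind, and GGGCGG, a GC box, on either strand.

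*Slc7a9*, chr7:35448842-35449141, plus strand: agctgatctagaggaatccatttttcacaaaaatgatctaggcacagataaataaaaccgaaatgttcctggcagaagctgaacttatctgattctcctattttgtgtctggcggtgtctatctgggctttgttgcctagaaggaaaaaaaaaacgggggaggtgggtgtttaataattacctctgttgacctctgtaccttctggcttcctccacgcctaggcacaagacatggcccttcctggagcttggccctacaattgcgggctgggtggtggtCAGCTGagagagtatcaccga

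*Slc29a1*, chr17:45599569-45599868, minus strand: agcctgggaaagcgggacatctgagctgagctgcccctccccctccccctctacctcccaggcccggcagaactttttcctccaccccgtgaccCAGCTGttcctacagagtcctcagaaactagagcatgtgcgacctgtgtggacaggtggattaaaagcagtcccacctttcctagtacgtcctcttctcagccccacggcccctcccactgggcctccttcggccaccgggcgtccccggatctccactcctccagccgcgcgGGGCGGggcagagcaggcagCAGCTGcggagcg

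*Slc22a17*, chr14:54913083-54913382, minus strand: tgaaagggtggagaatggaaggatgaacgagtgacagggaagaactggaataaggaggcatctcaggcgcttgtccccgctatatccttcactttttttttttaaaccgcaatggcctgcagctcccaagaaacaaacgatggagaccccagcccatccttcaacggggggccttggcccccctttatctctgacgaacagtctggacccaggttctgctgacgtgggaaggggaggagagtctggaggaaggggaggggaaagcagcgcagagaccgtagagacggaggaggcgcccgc

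The *Slc7a9* window holds 1 E-box and no GC box, and that of *Slc29a1* holds 2 E-boxes and 1 GC box. Neither motif is in the *Slc22a17* window. Of all 32851 promoter windows of this length, 16.3% hold the E-box and 35.7% the GC box, with no overlap of their letters. GC content was 47.0%, 65.0% and 56.3% in the order shown.

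Among the other transporters of amino acids and peptides, no gene passed the test in either strain. The group has 28 oligonucleotides for 24 genes, with a median of 0.09 in BSG and 0.03 in GSG against -0.02 and -0.01 over the array. *Slc3a1*, the heavy chain that *Slc7a9* needs to reach the membrane, was at -0.19 and -0.32 in the BSG mice and at 0.18 and -0.11 in the GSG mice at 20 weeks (fitted -0.26 with a 95% confidence interval of -0.61 to 0.09 in BSG, and 0.03 with -0.32 to 0.38 in GSG). Both BSG mice of *Slc3a1* were below their 1-week mouse at each of the 8 later ages, down to a fitted -0.55 at 10 weeks. The mean over 8 to 20 weeks was -0.40 in BSG (95% confidence interval -0.81 to 0.01, limma adjusted *P*-value 0.677), with -0.43 and -0.37 in its loops, and 0.06 in GSG (-0.35 to 0.47). The relatives of *Slc7a9* stayed near 1 week, apart from *Slc7a2*. *Slc7a1*, *Slc7a3*, *Slc7a7*, *Slc7a8*, *Slc7a10* and *Slc7a11* lay between -0.05 and 0.25 in both strains except for *Slc7a10* in GSG at -0.12. *Slc7a2*, a transporter of cationic amino acids, has 2 oligonucleotides. The first gave -0.11 in BSG and -0.45 in GSG (SE 0.15), and the second 0.30 and -0.39 (SE 0.21). Both GSG mice were below their 1-week mouse at 8 of 8 later ages by the first, and at 7 by the second. *Slc1a5*, a neutral amino acid transporter that brings in glutamine, was at 0.82 and 0.58 in the BSG mice and at -0.01 and 0.22 in the GSG mice (fitted 0.70, SE 0.32, limma adjusted *P*-value 0.386 in BSG). *Slc15a3*, a peptide and histidine transporter of lysosomes, was at 0.91 and 0.35 in BSG and at 0.17 and 0.48 in GSG (fitted 0.63 and 0.33, SE 0.32).

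*Slc6a6*, the taurine transporter, was measured at 0.14 in BSG and 0.04 in GSG (SE 0.19). *Slc7a8*, a light chain of the system that exchanges large neutral amino acids, was at 0.07 and 0.25 (SE 0.21). *Slc43a3* had the second lowest value of the group in BSG, -0.78 (SE 0.26), with -1.30 in the mouse of loop 1 and -0.25 in that of loop 2. In GSG it was at 0.00, and it is named here after its values were seen. Its place among amino acid carriers came from general knowledge, and the substrate it carries was not checked. *Slc1a3*, a glial glutamate transporter, has 3 oligonucleotides that differed among themselves. The first gave 0.47 in BSG and 0.74 in GSG (SE 0.49), the second -0.05 and -0.15 (SE 0.16), and the third 0.31 and -0.06 (SE 0.12).

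The glucose transporters of muscle were not called. *Slc2a4*, the transporter that insulin brings to the fibre surface, was at -0.46 and 0.05 in the BSG mice and at 0.81 and 0.35 in the GSG mice at 20 weeks. The strains did not overlap, but the fitted values of -0.21 and 0.58 had an SE of 0.34, and the strain difference of -0.79 (95% confidence interval -1.78 to 0.21, limma adjusted *P*-value 0.827) did not pass the test. At 8 weeks the BSG value was 0.74, with 1.24 and 0.23 in the mice of loops 1 and 2. *Slc2a1*, the basal glucose transporter, was at -0.04 in BSG (95% confidence interval -0.32 to 0.25) and 0.01 in GSG (-0.27 to 0.29). *Slc2a3* was at 0.19 and -0.06 (SE 0.22). The 14 sugar carriers had medians of -0.03 in BSG and 0.06 in GSG and ranged from -0.52 to 0.61.

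The lowest of them was *Slc50a1*, a sugar transporter of the Golgi and plasma membrane, at -0.57 and -0.46 in the BSG mice and at -0.56 and -0.32 in the GSG mice. These 4 values lay close together, and the fitted values were -0.52 and -0.44 (SE 0.18) with limma adjusted *P*-values of 0.192 and 0.205. *Slc2a5*, the fructose transporter, was at -0.29 and -0.25 (SE 0.19). Proteins that act beside the glucose carriers gave no call either. *Hk2*, the hexokinase of muscle, has 2 oligonucleotides, of which 1 was at 0.66 in BSG and 1.07 in GSG (limma adjusted *P*-values 0.436 and 0.066) and the other at 0.23 and 0.07.

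Carriers of monocarboxylates and of di- or tricarboxylates are represented by 6 genes, with medians of 0.05 in BSG and -0.02 in GSG, and none was called. *Slc16a1*, through which oxidative fibres take up lactate, was at 0.47 and -0.49 in the BSG mice and at 0.06 and -0.56 in the GSG mice, so the loops of each strain pointed in opposite directions. *Slc16a3*, the lactate exporter of glycolytic fibres, was fitted at -0.19 (95% confidence interval -0.50 to 0.13) and 0.01 (-0.31 to 0.32). It stood somewhat higher at 2.5 weeks, at 0.41 in BSG and 0.44 in GSG, where its mice were at 0.53 and 0.28 in BSG and at 0.32 and 0.56 in GSG. *Slc16a7* was at 0.14 and -0.01 (SE 0.16).

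*Slc16a11*, an orphan member of the family that has been tied to lipid metabolism, was lower in the 4 mice at 20 weeks, at -0.38 and -0.48 in BSG and at -0.69 and -0.11 in GSG. The fitted values of -0.43 and -0.40 (SE 0.17) had limma adjusted *P*-values of 0.280 and 0.232. *Slc16a8*, a lactate exporter best known from the retina, had the highest value of all carriers in GSG, 1.02 (SE 0.42), which came from 1 mouse at 2.72 while the other was at -0.67. The strain difference of -0.93 was -2.62 without GSG loop 2 and 0.77 without GSG loop 1. Of the partners that carry these proteins to the membrane, *Emb* (embigin) rose in GSG, at 0.92 (SE 0.26, limma adjusted *P*-value 0.0474), with 1.22 and 0.62 in its mice and 0.84 in BSG (0.120). The call of *Emb* was lost without any 1 of the 4 loops, at limma adjusted *P*-values of 0.119, 0.123, 0.361 and 0.108. *Bsg* (basigin, a gene whose symbol resembles the name of the BSG strain) was at -0.23 and 0.21 (SE 0.20).

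The 7 measured mitochondrial carriers of the *Slc25* family had medians of -0.02 in BSG and 0.04 in GSG, and none was called. *Slc25a4*, the ADP/ATP carrier of heart and muscle, was at 0.07 and -0.12 in the BSG mice and at 0.66 and -0.11 in the GSG mice. Its fitted values were -0.02 (95% confidence interval -0.65 to 0.60) and 0.27 (-0.35 to 0.90). *Slc25a5*, the ADP/ATP carrier of proliferating and non-muscle cells, was below 1 week in the 4 mice, at -0.87 and -0.74 in BSG and at -0.75 and -0.26 in GSG. *Slc25a20*, which brings acylcarnitines into the matrix, was also lower in the 4 mice, at -0.81 and -0.44 in BSG and at -0.46 and -0.57 in GSG. The fitted values were -0.80 and -0.50 for *Slc25a5* (SE 0.35) and -0.62 and -0.51 for *Slc25a20* (SE 0.30), with limma adjusted *P*-values between 0.365 and 0.595 for both genes. *Slc25a13*, the aspartate-glutamate carrier, was higher in the 4 mice at fitted values of 0.35 and 0.17 (SE 0.15).

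Of 5 mitochondrial carriers with other names none was called. *Mtch1* was at -0.80 in BSG and -0.37 in GSG (SE 0.38), *Ucp3*, an uncoupling protein of muscle, at -0.17 and 0.22 (SE 0.14), and *Mpc1*, a subunit of the pyruvate carrier, at 0.28 and 0.39 (SE 0.35). Carnitine itself enters the cell through *Slc22a5*, which was at 0.07 and -0.08 (SE 0.15). *Slc22a4*, its neighbour in the family, was at 1.09 and 0.29 in the BSG mice and at 0.45 and -0.07 in the GSG mice, and *Slc27a1*, a fatty acid transport protein of muscle, was at -0.36 and -0.31 (SE 0.33).

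Metal ion transporters held the highest carrier in BSG. *Slc11a1*, the transporter that pumps iron and manganese out of the phagosome of macrophages, was at 1.11 and 0.95 in the BSG mice and at 0.64 and 1.09 in the GSG mice at 20 weeks. The 4 mice were higher, and the strains overlapped. The fitted values were 1.03 in BSG and 0.87 in GSG (SE 0.33), 2.04-fold and 1.83-fold higher. They did not pass the test (limma adjusted *P*-values 0.141 and 0.165). In each strain *Slc11a1* was called in 1 of 15 alternatives, with spots as separate observations (limma adjusted *P*-values 0.00279 and 0.0122). Those spots are duplicates on the same arrays and add no mouse. At 2.5 weeks the values were -0.26 and -0.30. In GSG the value reached 1.15 at 8 weeks and was 0.41 at 12 weeks.

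Most markers of macrophages were, like *Slc11a1*, higher at 20 weeks than at 1 week. Of 13 measured marker genes 12 were higher at 20 weeks in each strain. The median was 0.73 in BSG (range -0.26 to 1.47) and 0.97 in GSG (range -0.06 to 2.09). Of the 13 genes, 0 rose in BSG and 5 rose in GSG by the test, against 35 and 58 of 8129 oligonucleotides on the array. *Mpeg1* was at 1.34 and 2.09, *Adgre1* at 1.34 and 0.97, and *Cd68* at 0.67 and 1.45 in BSG and GSG. The part of these cells in the values of *Slc11a1* and *Slc15a3* was not tested.

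*Slc40a1*, the exporter of iron from macrophages and gut, showed how far loops can part. In BSG the mice of loop 1 were above 1 week at each of the 8 later ages, up to 1.90 at 8 weeks, and those of loop 2 were all below it, down to -1.03 at 6 weeks. The fitted values at 20 weeks were 0.15 and -0.23 (SE 0.35). *Slc11a2*, which takes up iron from endosomes, was at -0.08 and 0.16 (SE 0.22). Of the proteins of iron handling that are not carriers, *Hfe* and 1 oligonucleotide of *Trf* passed the test, each in 1 strain. Others were not called: *Tfrc* was at -0.08 in BSG and -0.17 in GSG, *Cp* at 0.03 and 0.25, and *Heph* at 0.56 and -0.70. *Hfe*, which binds the transferrin receptor, rose in GSG, at 1.31 and 1.09 in the mice and 1.20 fitted (SE 0.21, limma adjusted *P*-value 0.00133), and was at 0.66 in BSG (0.144). Without GSG loop 2 *Hfe* was at 1.31 in GSG and not called (limma adjusted *P*-value 0.0576). Of 4 oligonucleotides for *Trf* (transferrin), 1 rose in BSG, at 1.31 (SE 0.33, limma adjusted *P*-value 0.0467), while the others were between 0.22 and 0.97 in that strain. Without BSG loop 1 or 2 the *Trf* value was 1.05 or 1.57 and was not called (limma adjusted *P*-values 1.00 and 0.118).

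Of the zinc transporters, *Slc30a5*, which fills the secretory pathway with zinc, differed most between the strains. At 20 weeks it was at 0.96 and -0.12 in the BSG mice and at -0.56 and -0.66 in the GSG mice. The strains did not overlap, but the BSG mice of loop 2 were below 1 week at each later age while those of loop 1 were above it, up to 1.27. The strain difference, BSG minus GSG, was 1.03 at 20 weeks (SE 0.27, limma adjusted *P*-value 0.384) and 0.88 over 8 to 20 weeks (SE 0.32, 0.998). By the temporal Hotelling *T*2-test *Slc30a5* had an unadjusted *P*-value of 0.00116, ranked 9 on the array, and an adjusted one of 0.897. The 20-week difference was 1.57 without BSG loop 2 and 0.49 without BSG loop 1, so it depended on the BSG loop used.

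No carrier was called in any test of a strain difference, nor was any other oligonucleotide (0% in each). At an unadjusted *P*-value below 0.05 the temporal test gave 6 carriers (4.4% of the array), the difference over 8 to 20 weeks 5 (3.54% of the array) and the difference at 20 weeks 8 (7.21% of the array). After *Slc30a5* the smallest *P*-values of the temporal test belonged to the third oligonucleotide of *Slc1a3* (0.0114) and to *Slc22a8*, an organic anion transporter of the kidney (0.0206). *Slc18a3*, which loads acetylcholine into vesicles of motor nerve endings, had a difference of -0.61 over 8 to 20 weeks (SE 0.29, unadjusted *P*-value from limma 0.0422), at -0.22 in BSG and 0.40 in GSG.

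*Slc9a3r1* is a scaffold that binds the sodium-proton exchanger and no carrier, although its symbol belongs to the rule. It was at 0.31 and 0.02 in the BSG mice and at -1.85 and -0.32 in the GSG mice at 20 weeks, so that 1 mouse of GSG lay far below the rest. The mice of GSG loop 1 descended from 0.02 at 2.5 weeks to -2.41 at 14 weeks, whereas those of loop 2 stayed between -0.42 and 0.12. The strain difference was 1.35 over 8 to 20 weeks (SE 0.55) and 1.25 at 20 weeks (SE 0.48, limma adjusted *P*-value 0.521), and leaving out 1 loop moved the former between 0.45 and 2.26. The others named after a carrier were *Slc9a3r2*, at -0.14 and -0.32 (SE 0.17), and *Slc4a1ap*, at 0.50 and -0.06 (SE 0.21).

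**Figure D2:**
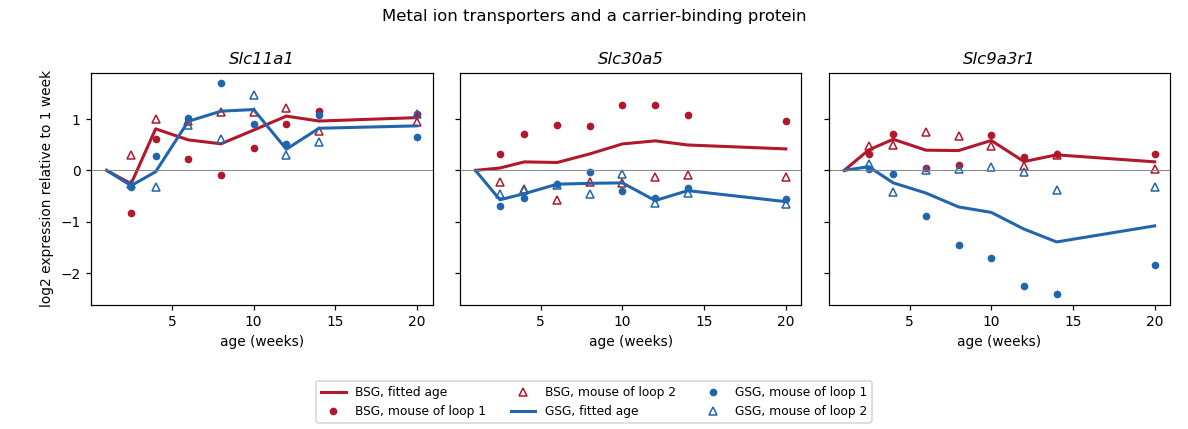
Log2 expression relative to 1 week (vertical axis) against age in weeks (horizontal axis) for *Slc11a1*, *Slc30a5* and *Slc9a3r1*, with fitted values as lines and single mice as circles (loop 1) and triangles (loop 2). *Slc11a1* lies above 0 at 20 weeks in the 4 mice, whereas the BSG loops of *Slc30a5* and the GSG loops of *Slc9a3r1* part.

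Transporters of inorganic ions, 22 oligonucleotides for 21 genes, had medians of -0.02 in BSG and 0.02 in GSG, and none was called. *Slc8a1*, the sodium-calcium exchanger, has 2 oligonucleotides. The first was at 0.09 and 0.14 (SE 0.15), and the second at 0.39 in BSG and -0.54 in GSG (SE 0.24), with 1.04 and -0.26 in the BSG mice and -0.55 and -0.52 in the GSG mice. The oligonucleotides of this gene therefore disagreed on the strain difference, which was -0.05 for the first and 0.92 for the second (limma adjusted *P*-values 0.980 and 0.515). The latter was 1.57 without BSG loop 2 and 0.27 without BSG loop 1. *Slc12a2*, the sodium-potassium-chloride cotransporter, was at 1.47 and -0.22 in the BSG mice and at 0.00 and -0.31 in the GSG mice. *Slc12a4*, a potassium-chloride cotransporter, was lower in the 4 mice at -0.39 in either strain (SE 0.21). The phosphate transporters *Slc20a1* and *Slc20a2* lay between -0.16 and 0.02.

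The pump that sets the sodium gradient for many of these carriers had 6 subunit genes on the array, of which *Fxyd5* rose in GSG, at 1.27 and 1.11 in the mice and 1.19 fitted (SE 0.29, limma adjusted *P*-value 0.0196), and was at 0.63 in BSG (0.404). Without GSG loop 1 or 2 it was not called (limma adjusted *P*-values 0.135 and 0.167). The other 5 were between -0.48 and 0.48. *Cav3*, the caveolin of muscle fibres, was at -1.78 and -0.61 in the BSG mice and at -0.51 and -0.61 in the GSG mice (fitted -1.20, SE 0.32, limma adjusted *P*-value 0.0627 in BSG). The whole list of genes that work with solute carriers held 22 genes, measured by 27 oligonucleotides, with *Slc9a3r1* among them. Of these oligonucleotides 1 rose in BSG and 2 rose in GSG, and none fell. Of 8129 oligonucleotides on the array, 35 rose and 69 fell in BSG, and 58 rose and 246 fell in GSG.

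Carriers of nucleosides and nucleotide sugars had medians of -0.07 in BSG and -0.08 in GSG over 10 genes, and *Slc29a1* was the only one called. *Slc29a2*, of the same family, was at 0.14 and 0.07 (SE 0.25), and the concentrative nucleoside transporters *Slc28a2* and *Slc28a3* were at 0.25 and 0.17 in BSG and at -0.33 and 0.19 in GSG. *Slc35a2*, which brings UDP-galactose into the Golgi, was lower in the 4 mice, at -0.57 and -0.27 in BSG and at -0.64 and -0.28 in GSG (fitted -0.42 and -0.46, SE 0.16, limma adjusted *P*-values 0.280 and 0.134). *Slc35b4*, another nucleotide sugar transporter, was at -0.06 in BSG and 0.60 in GSG (SE 0.40).

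The remaining groups lay close to the array. The 9 oligonucleotides for transporters of neurotransmitters, creatine and choline had medians of -0.04 and 0.03. Within them *Slc6a2*, the noradrenaline transporter of sympathetic nerve endings, was at -0.16 and 0.13 by 1 oligonucleotide (SE 0.14) and at -0.58 and -0.19 by the other (SE 0.26). The 23 transporters of fatty acids, bile acids, organic ions and vitamins had medians of -0.05 and -0.04. *Slc19a1*, the folate carrier, was lower in the 4 mice, at -0.54 and -0.22 in BSG and at -0.02 and -0.78 in GSG (fitted -0.38 and -0.40, SE 0.15, limma adjusted *P*-values 0.304 and 0.171). The 7 oligonucleotides for organic anion transporters named *Slco* ranged from -0.16 to 0.48 with none called.

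**Figure D3:**
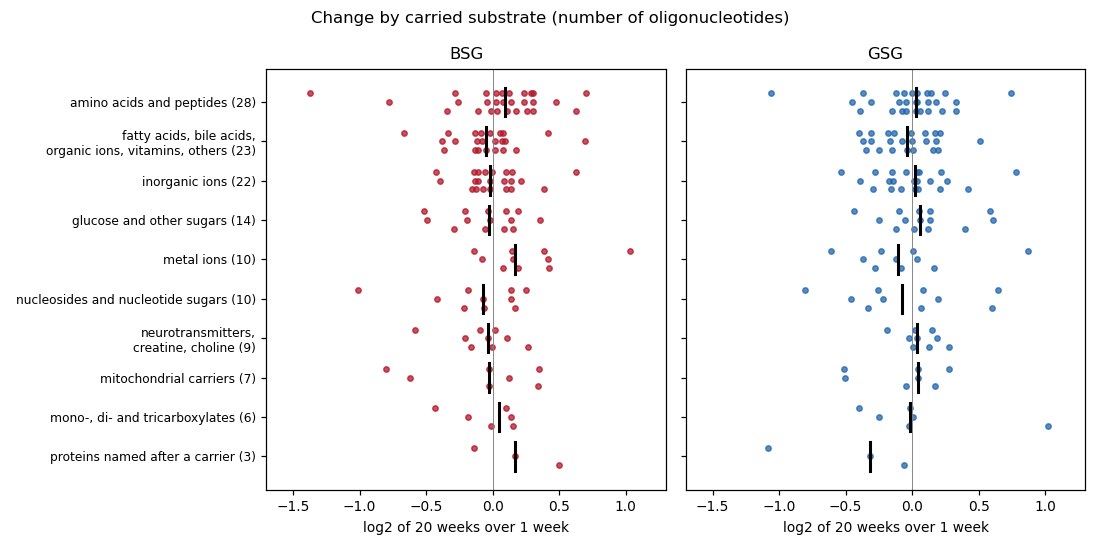
Log2 ratio of 20 weeks over 1 week (horizontal axis) for each of the 132 oligonucleotides, grouped by the substrate carried (vertical axis, with the number of oligonucleotides), in BSG (left, red) and GSG (right, blue); points are spread vertically only for legibility and black bars are medians. The medians of the groups lie between -0.32 and 0.17, and the 3 proteins named after a carrier, which are few, part most between the strains.

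The 20-week differences of the strains can be set side by side. Over the 132 oligonucleotides BSG and GSG, which share no mouse, correlated at 0.42 (Pearson's r; Spearman's rho 0.28), against 0.41 (0.21) over the array, as a description across genes. *Slc7a9* and *Slc29a1* were the lowest carriers in BSG and, after *Slc9a3r1*, the lowest in GSG, and *Slc11a1* was the carrier highest in BSG and the second highest in GSG. The test of any change over the 8 later ages called no carrier in BSG (0.0984% of the array) or in GSG (0.59% of the array) by limma's moderated F test, and 8 in each strain were at an unadjusted *P*-value below 0.05 (4% and 7.81% of the array).

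**Figure D4:**
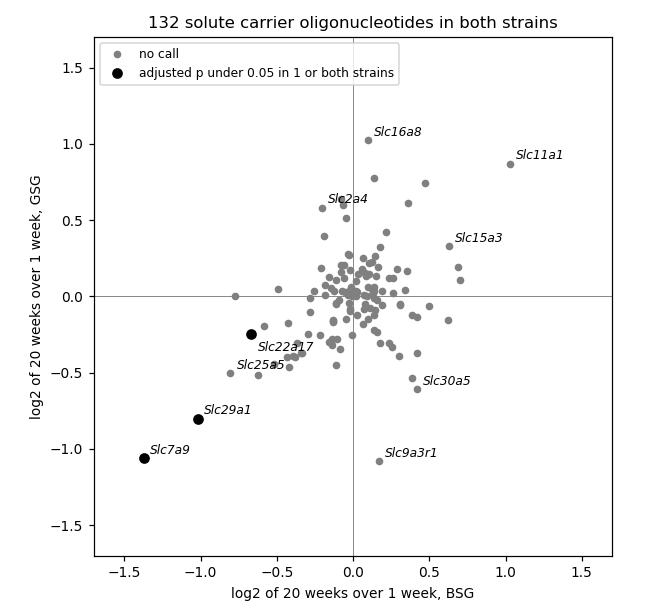
Log2 ratio of 20 weeks over 1 week in GSG (vertical axis) against BSG (horizontal axis) for the 132 solute carrier oligonucleotides; black points were called in at least 1 strain. *Slc7a9* and *Slc29a1* lie at the lower left, *Slc11a1* at the upper right, and *Slc9a3r1* and *Slc30a5* at the lower right.

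Markers of other cells that could share in these declines were also counted at 20 weeks. Of 10 endothelial genes 2 were above 1 week in BSG and 1 in GSG, with medians of -0.23 (range -0.70 to 0.14) and -0.49 (range -0.83 to 0.09) and none called. Of 9 oligonucleotides for fibroblast genes 2 fell in BSG and 4 fell in GSG, against 69 and 246 of 8129 on the array. Of the 9, 6 were above 1 week in BSG and 1 in GSG, with medians of 0.11 (range -1.66 to 0.63) and -0.20 (range -2.13 to 1.02). The collagen gene *Col1a1* was at -1.66 and -2.13, and *Col3a1* at 0.58 and 1.02. *Slc29a1* is known from blood vessels and red cells as well as muscle, and among 11 erythroid genes the medians were -0.05 (range -1.15 to 0.14) and -0.03 (range -0.80 to 0.16), with 1 fallen in GSG. That gene was *Alas2*, of heme synthesis, at -0.80 in GSG (limma adjusted *P*-value 0.0397) and -0.86 in BSG, where its adjusted *P*-value was just above the threshold. *Hba-a1*, of haemoglobin, was at -1.15 in BSG and -0.60 in GSG and was not called. Both genes were lower in the 4 mice, whereas 3 of the 11 erythroid genes were above 1 week in BSG and 4 in GSG. Markers of muscle fibres had medians of -0.03 and 0.18 over 15 oligonucleotides and none was called. The part of these cells in the decline of *Slc29a1*, *Slc7a9* and *Slc22a17* was not tested.

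**Figure D5:**
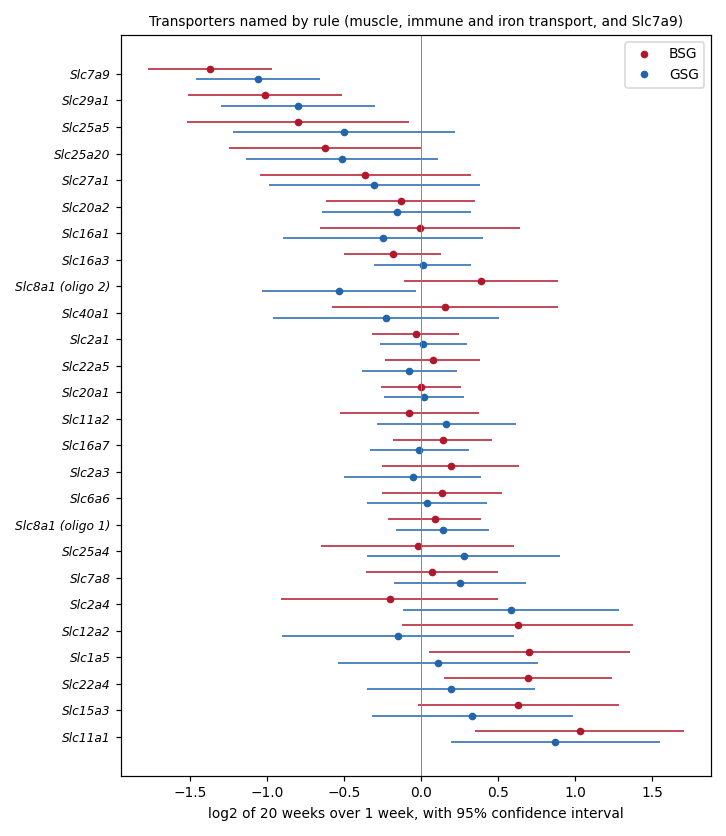
Log2 ratio of 20 weeks over 1 week (horizontal axis) with its 95% confidence interval for 26 oligonucleotides of transporters known from muscle, immune cells and iron transport, and *Slc7a9* (vertical axis), in BSG (red) and GSG (blue), ordered by the mean of the strains. *Slc7a9* and *Slc29a1* at the top and *Slc11a1* at the bottom have intervals that exclude 0 in both strains before adjustment over the array, and those of *Slc2a1* and *Slc20a1* are narrow around 0.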

How the data were processed

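Amplified and labelled quadriceps RNA of 36 mice was hybridised in 4 loops of 9 arrays carrying a mouse library of long oligonucleotides in duplicate. After a GenePix scan the authors corrected for position on the slide, dye and array with the smida R package, and deposited log ratios, read here as log2. Their base and direction are not given in the sources used here. They were taken as Cy5 over Cy3 in log2, since values reach -12.0 and 11.5, where Cy5 is the later age except on the array that closes each loop. The files hold no intensities or depth, and the number of arrays limits the precision.

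The members and lists were chosen with earlier results of these data known. The 2 spots of an oligonucleotide were averaged, giving 8129 oligonucleotides (6752 with 1 symbol, 7 with several, 1370 with none), with no filter. All 132 members matched a RefSeq gene ID of GRCm38.p6. Ages were fitted per strain with limma (version 3.58.1, R version 4.3.3; 16 coefficients, 20 residual degrees of freedom, 1 estimate of the spread for both strains) with Benjamini-Hochberg adjustment over 8129 oligonucleotides at 0.05. The temporal Hotelling test followed the study, with a polynomial of degree 2 (3 and 30 degrees of freedom). Values of single mice were fitted within a loop, and the scripts were tested on simulated data. *P*-values measure the spread between 2 mice per age and, in part, between arrays, since each mouse is on 2 arrays. Named are the genes called, the 2 with the largest mean change per substrate among those of 1 sign in the 4 loops, transporters known from muscle, and the 3 smallest *P*-values per strain test; a few more were chosen after their values were seen. Substrate groups and lists came from general knowledge, and 3 genes were moved between groups after the files were opened. Alternatives are given at the end. Markers of Schwann cells and nerve (9 oligonucleotides, medians -0.06 and 0.09, 1 fallen in each strain) and adipocytes (8, medians 0.14 and 0.10, none called) were also counted. Plots used matplotlib (version 3.10.9) under Python (version 3.11.15).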

Additional observations from a re-analysis of the deposited data

How the results depend on the processing

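Directions did not turn under any alternative for the genes tabulated (*Slc7a9*, *Slc29a1*, *Slc22a17*, *Slc11a1*, and the strain differences of *Slc30a5* and *Slc9a3r1*), and counts of calls, which were small, moved; the cause was not tested. At 20 weeks in BSG, where 3 carriers were called, the count was 1 with scaled arrays, with first or second spots alone, and with 1 value per animal and the loop as a replicate block (*Slc29a1*), and 5 with spots as separate observations; leaving out 1 loop gave 0 to 4. In GSG, where 1 was called, it was 4 with a dye term, second spots alone or separate spots, and 3 with loops as a random replicate block or without the arrays of discordant spots; leaving out 1 loop gave 1 to 3. The gene called in GSG was *Slc29a1* with 1 value per animal and *Slc9a3r1* with first spots alone, in place of *Slc7a9*. Without GSG loop 2 the gene called was not *Slc7a9* either. Over 8 to 20 weeks in BSG, where 1 was called, it was 0 with scaled arrays, first or second spots alone, without discordant arrays, with genes of 1 symbol only or without moderation, 2 with a dye term, 3 with separate spots and 4 with 1 value per animal and the replicate block; leaving out 1 loop gave 0 to 2. In GSG that count was 0, and 1 with 1 value per animal and the replicate block. For any change over the later ages, with 0 called in either strain, BSG had 2 with a dye term, 1 with the random replicate block and 5 with separate spots, GSG had 4 with separate spots, and leaving out 1 loop gave 0 and 0 to 4. Leaving out 1 loop gave 0 to 1 in the temporal test and 0 to 2 in the strain difference at 20 weeks. Within a strain, deviations of loop 1 arrays from the mean of both loops correlated between arrays at -0.38 to 0.37 (BSG) and at -0.47 to 0.33 (GSG). Neighbouring arrays of a loop share a mouse, so these values do not decide whether loop numbers pair mice across ages. Pairing across strains was not tested. *Slc7a9* was called in 13 of 15 alternatives in BSG and 12 of 15 in GSG (limma adjusted *P*-values up to 1.00 and 0.580), *Slc29a1* in BSG in 7 and in GSG in 5, and *Slc22a17* in BSG in 7. The temporal test was not run with the dye term, random block, animal values, separate spots or without moderation. Where a loop or the discordant arrays were left out, it used a variance pooled over the strains, unlike the main test. Signal over background is not known.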
